A study of Mus musculus with 4 samples.

Results

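The CXC chemokine gene cluster of mouse chromosome 5 was examined in a list of peaks called from FAIRE sequencing, an assay of open chromatin, of cultured mammary cancer cells. Its regions were the listed peaks whose midpoint lay between 91100000 and 91400000 on chromosome 5 of the mm9 build. This rule found 7 of the 3190 regions in the list and 7 of the 171 on chromosome 5. The stretch is named for 7 genes: Cxcl5, Ppbp, Pf4, Cxcl3, Cxcl15, Cxcl1 and Cxcl2. The stretch was chosen by the positions of the regions in this same list, as one rich in them, so the number and closeness of its regions are given below as descriptions, without a test.

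The cells came from 2 conditions on the FVB background. Per the source labels, cancer cells marked HyG were from MMTV-PyMT/PANIC mice and cells marked Control from MMTV-PyMT mice. The conditions are called hyperglycemic and euglycemic here, after the mice and not the culture. In both, the mouse mammary tumour virus promoter, active mainly in mammary epithelium, drives the polyomavirus middle T oncogene. The PANIC allele, which the labels do not describe further, goes together with the glucose state, so the line and hyperglycemia cannot be told apart. Cells were freshly isolated and then grown in serum-containing medium with no other treatment. Each condition gave 1 FAIRE library and 1 input library, 4 in all. FAIRE recovers the soluble, nucleosome-poor DNA of formaldehyde-fixed chromatin, which is rich in active promoters and enhancers. The 1 peak list used here names no library as its source and carries no read depth, and whether its peaks mark open chromatin or a difference between the conditions is not known. None of the values below therefore belongs to either condition, and there are no replicates. No expression values or sequence of the regions were used, so neither the epithelial identity of the cells nor the activity of the chemokine genes was examined.

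CXC chemokines are small secreted proteins that guide leukocytes along a gradient. Cxcl1, Cxcl2, Cxcl3 and Cxcl5 attract neutrophils through the receptor Cxcr2, and tumour cells and stroma of the mammary gland are known to secrete several of them. Ppbp (platelet basic protein) and Pf4 (platelet factor 4) are stored in platelet granules and made in megakaryocytes. Cxcl15, or lungkine, is best known from lung epithelium. Genes for the neutrophil-attracting members are classic targets of NF-kB, an inflammatory transcription factor. The RefSeq gene table of the later build GRCm38.p6 held all 7 genes, in the order given above, with 0 other annotated genes between the first and the last. Gm36084, a long non-coding RNA gene, and Rassf6 were the next genes on the Cxcl5 side. On the Cxcl2 side the next protein-coding genes were Mthfd2l, a folate-pathway enzyme gene, and then Epgn, Ereg and Areg, which encode ligands of the EGF receptor. The long non-coding RNA genes Gm52819 and Gm19610 lay on either side of Epgn.

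The upstream DNA of Cxcl1 and Cxcl2 is shown because 4 of the 7 regions lay around these genes. That of Cxcl3, a close relative in the part without any region, is shown for contrast and was chosen after the region positions had been seen. Each sequence holds the 250 bases before the RefSeq start of the gene, 5′ to 3′. Capitals mark matches, on either strand, to an NF-kB pattern of GGG and TTTCC with any 2 bases between them. The coordinates are those of GRCm38.p6 and cannot be set against the mm9 positions of the regions.

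Cxcl1 (chr5:90890995-90891244, GRCm38.p6, plus strand): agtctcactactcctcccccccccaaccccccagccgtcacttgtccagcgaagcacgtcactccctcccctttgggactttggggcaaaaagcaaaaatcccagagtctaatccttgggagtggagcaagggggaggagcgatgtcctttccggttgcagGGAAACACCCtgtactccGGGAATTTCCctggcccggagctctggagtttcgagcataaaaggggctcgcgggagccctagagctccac
Cxcl2 (chr5:90903649-90903898, GRCm38.p6, plus strand): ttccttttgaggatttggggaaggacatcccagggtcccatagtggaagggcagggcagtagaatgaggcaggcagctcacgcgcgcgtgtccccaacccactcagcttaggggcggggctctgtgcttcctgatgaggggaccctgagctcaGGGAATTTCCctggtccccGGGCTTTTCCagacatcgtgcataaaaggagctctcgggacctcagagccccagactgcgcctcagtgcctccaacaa
Cxcl3 (chr5:90785851-90786100, GRCm38.p6, plus strand): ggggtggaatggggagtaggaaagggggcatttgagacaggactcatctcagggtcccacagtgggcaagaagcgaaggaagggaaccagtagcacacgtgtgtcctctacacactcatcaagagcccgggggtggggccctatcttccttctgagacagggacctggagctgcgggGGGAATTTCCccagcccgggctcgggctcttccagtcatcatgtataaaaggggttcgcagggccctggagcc

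All 3 sequences carried the match GGGAATTTCC, at 71 to 62 bases before the start in Cxcl1, 97 to 88 in Cxcl2 and 73 to 64 in Cxcl3. Cxcl1 had another match on the opposite strand, read on the printed strand as GGAAACACCC, and Cxcl2 had another, GGGCTTTTCC, on the printed strand. Ppbp, Pf4 and Cxcl15 had no match in the same window, and Cxcl5 was not in the promoter table. The pattern was thus found in 3 of the 6 genes matched, against 1.41% of the 32851 upstream sequences of this length in the table. A stricter form contained in it, with A as the base before TTTCC, was found in the same 3 genes and in 0.28% of all sequences, and the shorter form GGGNNTTCC in 0 of the 6 and 4.98% of all. The letters TATAAA, as in a TATA box, were present anywhere in the window in Ppbp, Cxcl3 and Cxcl15 (12.4% of all sequences). Cxcl1 and Cxcl2 instead carry CATAAA, which differs only in its first letter, so they are not shown to lack such an element. The remaining motifs, also searched on both strands, were seen in 1 gene each: the AP-1 letters TGANTCA in Ppbp (6.75% of all), the C/EBP letters TTGCNNAA in Pf4 (9.56%) and the E-box CACGTG in Cxcl3 (6.02%). Cxcl1, Cxcl2 and Cxcl3 are close relatives, so their NF-kB matches are not independent. The shares count sequences, 32851 for 27025 gene symbols, and not genes. All these matches describe the letters only. Whether a factor binds there in these cells was not tested.

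The 7 regions, numbered from left to right, fell into a group of 3 on the Cxcl5 side and a group of 4 around Cxcl1 and Cxcl2, with an empty stretch between them. Region 1 covered chr5:91117918-91119015 (1098 bp) and had a score of 85.76, the authors' own value per peak, whose scale the sources at hand leave unstated. Region 2 covered chr5:91123420-91124348 (929 bp) and scored 97.17. Region 3 covered chr5:91182598-91183389 (792 bp) and scored 55.91, the lowest score of the 7.

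For the genes, only mm9 positions rounded to 10 kb, as stated in the selection rule, were at hand, so distances are given to the nearest 10 kb. Cxcl5 was placed near 91.19 Mb. Regions 1 and 2 lay about 70 kb to its left, away from the other chemokine genes, and region 3 about 10 kb to its left. Region 3 was thus the only one of the 7 whose distance to Cxcl5 came near the rounding, and whether it lies in the gene or beside it is not resolved.

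Region 4 covered chr5:91304932-91306400 (1469 bp) and had the highest score of the 7, 111.18. Region 5 covered chr5:91307970-91310055 (2086 bp), with a score of 81.27. Both lay about 10 kb to the left of Cxcl1, which was placed near 91.32 Mb. Region 6 covered chr5:91332099-91332660 (562 bp), scored 79.80, and coincided within the rounding with Cxcl2, placed near 91.33 Mb. Region 7 covered chr5:91337719-91338422 (704 bp), scored 61.82 and lay about 10 kb to the right of Cxcl2. The neutrophil chemokine genes Cxcl1 and Cxcl2 therefore had regions on both sides, as far as the rounding allows, with regions 4 and 5 to the left of the pair and region 7 to the right.

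No region lay from 91183390 to 91304931, a gap of 121.5 kb that made up 40.5% of the stretch. Cxcl15, placed near 91.22 Mb, fell inside this gap. Ppbp, Pf4 and Cxcl3 come between Cxcl5 and Cxcl15 in the gene order, so, as far as these positions go, the list had no region at the platelet chemokine genes, at Cxcl3 or at Cxcl15. The stated position of Cxcl5 was also inside the gap, but closer to its left end than the rounding of 10 kb. An empty stretch in a list of called peaks does not show closed chromatin, since regions below the caller's lowest score of 50.01 are not listed.

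**Figure D1:**
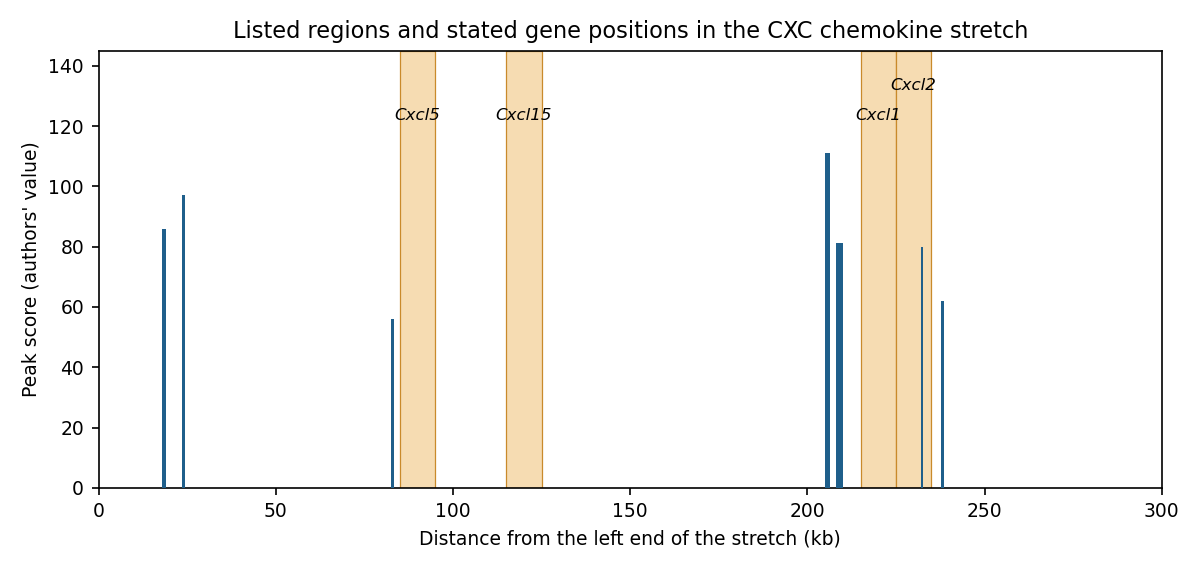
Score (vertical axis, the authors' value per peak) and position (horizontal axis, distance in kb from the left end of the stretch) of the 7 regions, with bar widths to scale. Orange bands are the rounded mm9 gene positions of the selection rule, each 10 kb wide; the 3 regions on the Cxcl5 side and the 4 around Cxcl1 and Cxcl2 stand apart across a gap of 121.5 kb.

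The 4 regions around Cxcl1 and Cxcl2 spanned 33.5 kb, or 11.2% of the stretch, and the 3 on the Cxcl5 side 65.5 kb. On chromosome 5, 2 of 168 runs of 4 neighbouring regions were this short, the run around Cxcl1 and Cxcl2 included. Over all nuclear chromosomes the number was 6 of 3129 such runs. The scores of the groups overlapped: those around Cxcl1 and Cxcl2 ran from 61.82 to 111.18 with a median of 80.53, and those on the Cxcl5 side from 55.91 to 97.17 with a median of 85.76. Widths overlapped as well, from 562 to 2086 bp around Cxcl1 and Cxcl2 and from 792 to 1098 bp on the Cxcl5 side.

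Of the 7 regions, 6 had another region within 10 kb, as did 12.6% of all nuclear regions. Because closeness goes with the choice of the stretch, nothing is read from that difference. The 6 formed 3 separate pairs: regions 1 and 2 with 4404 bp between them, regions 4 and 5 with 1569 bp, and regions 6 and 7 with 5058 bp. Region 3 stood alone, 58249 bp to the right of region 2. The remaining gap, between region 5 to the left of Cxcl1 and region 6 at Cxcl2, was 22043 bp. The median of the 6 gaps was 13.6 kb, whereas neighbouring regions on chromosome 5 had a median gap of 340 kb and those of the nuclear list 283 kb. Gaps between 7 regions within 300 kb are short by construction and cannot reach 340 kb, so nothing is read from this difference. Of the 170 gaps on chromosome 5, 31.8% were shorter than the longest gap in the stretch.

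**Figure D2:**
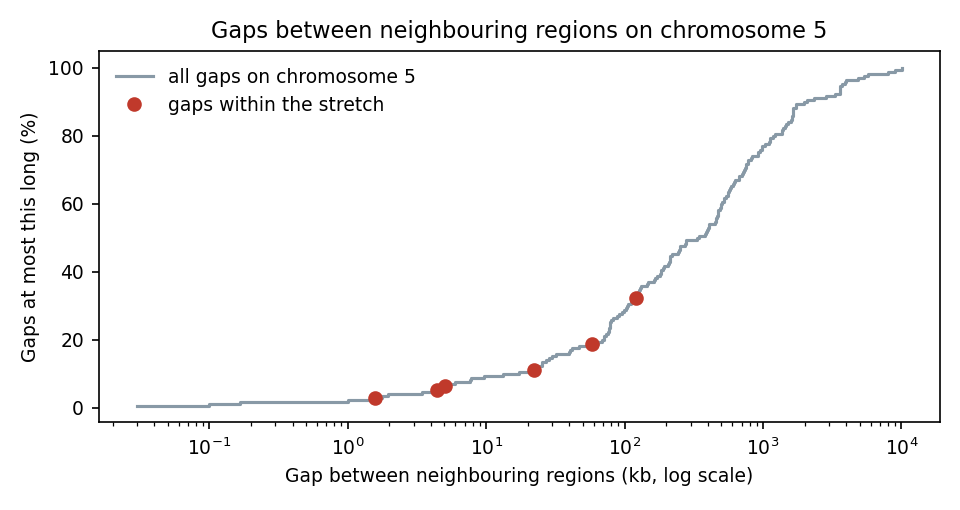
Cumulative share (vertical axis, percent) of the 170 gaps between neighbouring regions on chromosome 5 by their length (horizontal axis, kb, log scale). Red points are the 6 gaps within the chemokine stretch, from 1569 bp to 121.5 kb. A gap inside a stretch of 300 kb cannot reach the chromosome's median of 340 kb.

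Within each of the 3 pairs, the narrower region had the higher score. At regions 4 and 5, left of Cxcl1, the region narrower by 617 bp scored 29.91 higher. The narrower of regions 1 and 2, by 169 bp, scored 11.41 higher. The narrower of regions 6 and 7, at and to the right of Cxcl2, by 142 bp, scored 17.98 higher. In the nuclear list the narrower region scored higher in 69 of 179 such pairs, or 38.5%. With 3 pairs this is a description of the stretch and no departure from the list is claimed.

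Region 5, near Cxcl1, was the widest of the 171 regions on chromosome 5 and ranked 8 by width in the whole list. Region 4 beside it ranked 5 by width on chromosome 5. Region 6, at Cxcl2, was among the narrow ones, with rank 153 on the chromosome. The median width in the stretch was 929 bp (562 to 2086 bp, n = 7), against 781 bp for the other 164 regions of chromosome 5 (quartiles 670 and 916 bp). Of the 7, 5 reached the list's median width, as did 50% of nuclear regions by construction.

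By score, region 4 near Cxcl1 ranked 12 on chromosome 5 and 247 in the list, region 2 ranked 22 and 435, and region 3 near Cxcl5 ranked 125 and 2389. The median score in the stretch was 81.27 (55.91 to 111.18, n = 7), against 60.84 for the other regions of chromosome 5 (quartiles 54.75 and 79.93). Of the 7, 5 scored at or above the list's median of 64.42, against 50% of nuclear regions, and 4 reached the upper quartile of 81.04. Region 5, with 81.27, only just reached it. The share of the list above either cut is fixed by construction. None came near the highest score on the chromosome, 164.80. The wide region 5 scored low for its width: among the 7 nuclear regions of 2000 bp or more, whose scores ran from 65.75 to 230.02 with a median of 112.40, it ranked 6.

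**Figure D3:**
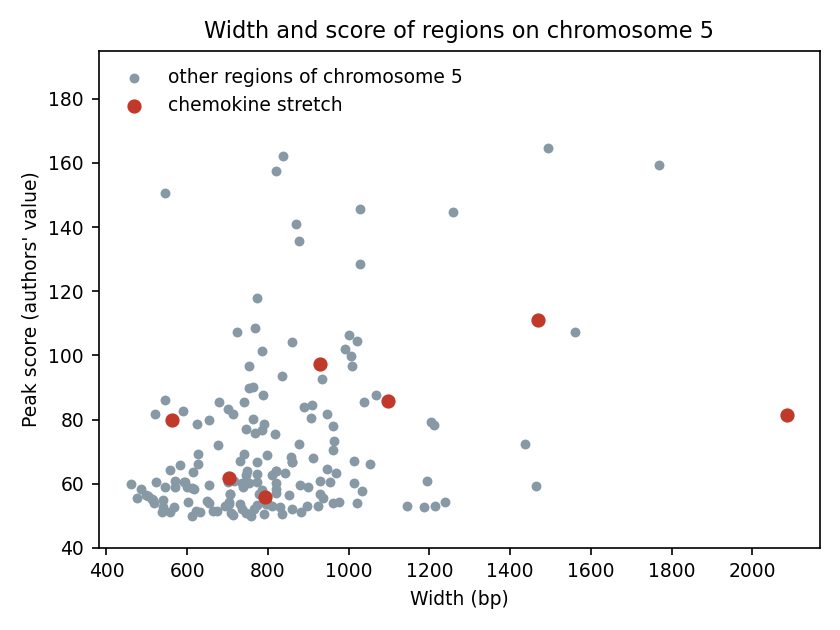
Width in bp (horizontal axis) and score (vertical axis, the authors' value) of the 171 regions on chromosome 5. The 7 regions of the chemokine stretch are red and the other 164 grey; the widest point, at 2086 bp, is the region left of Cxcl1.

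Equal windows of 300 kb were laid along chromosome 5 in both directions from the stretch. Of 493 such windows, 379 (76.9%) held no region, 83 held 1, 18 held 2 and 8 held 3, with a mean of 0.343 per window. The chemokine stretch, with 7, was the only one with 7 or more (0.203% of windows). Its regions covered 7640 bp, or 2.55% of the stretch, where regions covered 0.0949% of the chromosome between its first and last region. The next windows held 5 regions each. They lay at chr5:53300001-53600000, with a median score of 60.63, at chr5:73700001-74000000, with 53.08, and directly to the right of the stretch at chr5:91400001-91700000, with 107.37.

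The chemokine stretch thus had more regions than its right neighbour, but not the higher scores, since the adjoining 5 ran from 60.17 to 162.07. The window to the left of the stretch held 1 region and the one beyond it 0, whereas the 2nd window to the right still held 2. The regions nearest outside the limits were chr5:91040243-91041707 (1465 bp, score 59.31), 59.0 kb beyond the left limit, and chr5:91465516-91466372 (857 bp, score 68.40), 65.9 kb beyond the right one. Just inside were region 1, 18.5 kb from the left limit, and region 7, 61.9 kb from the right limit. Shifts of less than 18.5 kb would therefore not change the members, but larger shifts to the right would.

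When the window was slid along the chromosome in steps of 50 kb, 5 of 2960 positions held 7 or more regions. The most was 8, at chr5:91250001-91550000 and chr5:91300001-91600000. Both positions take in the 4 regions around Cxcl1 and Cxcl2 and leave out the 3 on the Cxcl5 side. The other 4 regions of these positions lie beyond an empty stretch of 127093 bp to the right of region 7, longer than the gap within the chemokine stretch. On the autosomes as a whole, 2 of 7860 windows held 7 or more: the chemokine stretch and a window on chromosome 13, at chr13:111500001-111800000, with 8 regions and a median score of 79.87. The chemokine stretch was the 1 autosomal window with 3 close pairs, and 4 others held 2, among them the window directly to its right. Closeness goes with the choice of the stretch, so nothing is read from this. The autosomal grid was set by the position of the stretch and was not slid. Groups of regions elsewhere may therefore be split between windows, and both autosomal counts depend on this grid.

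**Figure D4:**
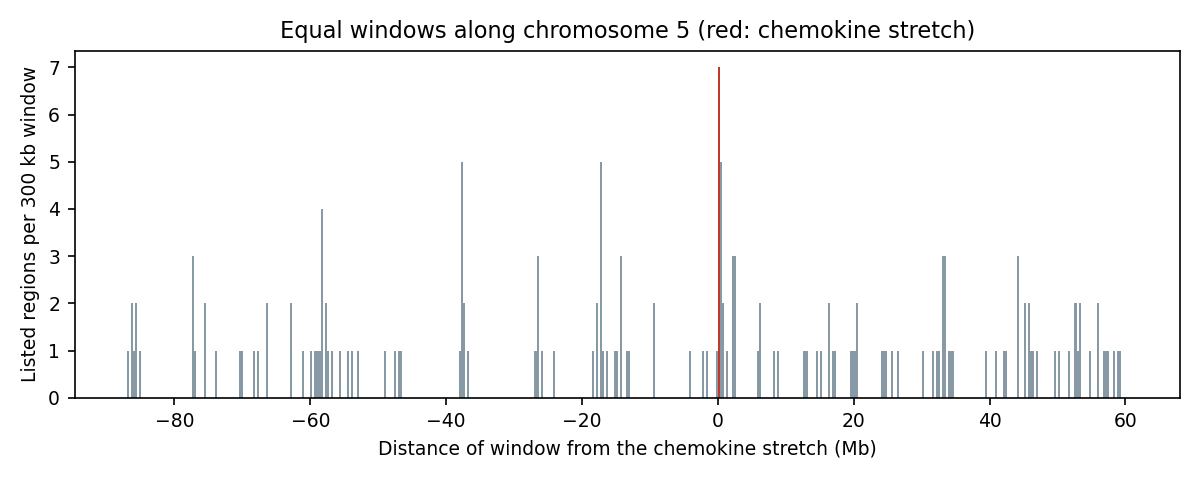
Number of listed regions (vertical axis) in each of 493 windows of 300 kb along chromosome 5, by the distance of the window from the chemokine stretch in Mb (horizontal axis). The red bar is the stretch with 7 regions, and no other window on this grid exceeds 5.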

How the data were processed

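FAIRE and input libraries were sequenced single-end on a SOLiD instrument, per the labels. The submitters' processing notes name MACS as the peak caller and mm9 as the build. The aligner, the settings, the filters and the choice of control library were not given in the sources used here. If the control was the other condition's library, a peak marks a difference and not open chromatin as such. The deposited list gives the start, end and score of each peak. The score is the authors' value, used only to rank peaks within the list. Starts, deposited counting from 0, were printed from 1. Read depth is unknown.

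Gaps, ranks, medians and window counts were computed in Python 3.11.15 with numpy 2.4.6 and pandas 2.3.3 and drawn with matplotlib 3.10.9; the counting was tested on simulated data. Windows lay wholly between the first and last peak of a chromosome. Close pairs had at most 10 kb between them and no further region within 10 kb. Motif searches used the 250 upstream bases of RefSeq promoters. Of gene tables, that of GRCm38.p6 served for names and order only. Protein sequences and the planned placing of receptors and other chemokines on mm9 were not used here. The genes named were all 7 members. The windows named on the chromosome 5 grid were the 3 with most regions, ties kept. Also named were the slid windows with most regions and the autosomal window with more regions than the stretch. Members and lists were chosen with earlier results of these data known. Alternatives varied membership, score minimum, merging and windows.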

Additional observations from a re-analysis of the deposited data

How the results depend on the processing

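No paired analysis was possible because there was a single library of each kind per condition, and the deposited peaks cannot be split by library; leaving out a library was likewise not possible. Of 29 alternatives, 23 stayed within 1.5 times the main count or length, or within the range of the members' own values for medians. That range is wide for the gaps, and the median gap fell from 13.6 kb to 4404 bp with scores at or above the upper quartile, where 4 regions were left. A median of width or score over some of the same 7 regions cannot leave the members' range. Those alternatives were therefore bound to count among the 23. Some of the 23 could not change the members. Counting any overlap added no region because none lay across a limit. Merging gaps of up to 1 kb joined none because the shortest gap was 1569 bp. The number of regions fell from 7 to 4 with scores at or above the upper quartile, and to 4 with gaps of up to 10 kb merged; fewer regions follow from both by construction. The number of windows with at least as many regions as the stretch, itself included, rose from 1 to 2 after that merging, to 5 with windows slid by 50 kb, which overlap, to 2 over all autosomes and to 2 with windows of 100 kb, where the densest part of the stretch held 4 regions. A grid set midway between the main windows divided the stretch. The window over its left part held 4 regions and that over its right part 8. This shift counted among the 23 because the window with 8 held the most. The number of regions below the caller's threshold is unknown, and so is the position of each gene within 10 kb.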
